A study of Mus musculus with 8 samples.

Results

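Expression of 10 genes of the circadian clock (Npas2, Per1, Per2, Per3, Cry1, Cry2, Nr1d1, Nr1d2, Dbp and Tef) was compared between young and old mice in the RPE/choroid. The RPE/choroid is the retinal pigment epithelium, the pigmented layer that serves the photoreceptors, together with the vascular coat behind it. Every probe set that the array annotation assigns to 1 of these 10 genes alone was taken, which gave 22 of the 34945 probe sets that name a single gene and 10 of 18193 genes. The rule itself uses no measured value, but the genes were chosen with earlier results of these data known. RNA came from male C57BL/6 mice with no transgene or treatment. There were 4 arrays of young animals aged 4 months and 4 of old animals aged 26 months. A pool of 4 RPE/choroids, taken from 2 animals, went on each array, so a replicate is a pair of mice and the spread between single animals was not measured. The time of day at which tissue was collected is not given in the sources used here. The question put to these arrays was whether expression differed between the ages, and for clock genes whether they shifted together in the way that a difference in collection time would shift them.

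The mammalian clock is a feedback loop of transcription. The heterodimer of BMAL1 (the product of Arntl) with CLOCK or NPAS2 binds E-boxes and activates the Per and Cry genes, whose proteins later repress it, and Nr1d1 and Nr1d2 encode REV-ERB repressors that close a further loop on Arntl. Dbp and Tef encode PAR bZIP activators that bind D-boxes, where NFIL3 competes with them, and in the eye the clock is known for timing the shedding and phagocytosis of photoreceptor outer segments.

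Of 11 RPE markers, 10 were between 2806 (the lowest value of Mitf) and 19489 (the highest of Ttr) on all 8 arrays, and Best1, a chloride channel of the RPE, was at 162 to 195. Array medians lay between 129 and 135, and 8 to 14 values per array were below 1. Arrays of the same age correlated at 0.991 or more across probe sets and arrays of different ages at 0.989 or less. Old replicate 2 stood apart from the other old arrays. Its mean centred log2 value over 6 neutrophil markers was 2.40, against -0.44 to 0.35 in the other old arrays and -0.88 to -0.51 in young arrays. S100a8, a calcium-binding protein abundant in neutrophils, was at 7828 on that array and at 346 to 888 on the other old arrays. Values that rest on old replicate 2 are therefore given with and without it.

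Upstream sequence was examined because the clock proteins act on each other's genes through short motifs. RefSeq windows of 250 bases before an annotated transcript start (GRCm38.p6) were found for 9 of the 10 genes, in 11 windows, and Per2 was not among them. The E-box CACGTG stood in windows of Per1, Cry1 and Tef, and 6.02% of all 32851 windows of this length hold it. The D-box, searched as TTATGTAA and its reverse complement TTACATAA, stood in the Per3 window at 2 places and in 0.819% of all windows. No member window held the REV-ERB and ROR element TAGGTCA (or TGACCTA) or the cyclic AMP element TGACGTCA, which 2.23% and 1.55% of windows hold. None of these matches overlapped another motif, and a match is a run of letters, not a measured binding site. Cry1 is shown because it had one of the clearest differences between the ages among the 10 genes, Per1 because it had the largest fitted difference among them, and Per3 because it carries the D-boxes. All are written 5′ to 3′ along the gene with the motif in capitals. The Cry1 window (chr10:85185055-85185304, minus strand) ends at the base before the start. The Per1 stretch (chr11:69098771-69098800, plus strand) is 30 bases around the E-box that begins 166 bases before a start inside the annotated gene. The Per3 stretch (chr4:151044716-151044915, minus strand) is the outer 200 bases of its window.
Cry1: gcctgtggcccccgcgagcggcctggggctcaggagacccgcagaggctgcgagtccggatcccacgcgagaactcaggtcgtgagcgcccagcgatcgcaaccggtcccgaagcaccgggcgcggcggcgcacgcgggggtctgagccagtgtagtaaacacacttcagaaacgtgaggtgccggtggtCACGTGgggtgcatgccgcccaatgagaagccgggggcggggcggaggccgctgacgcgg
Per1: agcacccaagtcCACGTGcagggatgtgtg
Per3: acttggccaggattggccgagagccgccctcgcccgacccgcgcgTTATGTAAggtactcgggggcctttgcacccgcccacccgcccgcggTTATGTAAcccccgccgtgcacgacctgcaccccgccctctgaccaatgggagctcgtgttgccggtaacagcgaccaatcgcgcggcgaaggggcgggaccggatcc

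Across the 22 probe sets, 4 were higher and 2 were lower in old animals at an adjusted p under 0.05 (limma on log2 intensities, Benjamini-Hochberg adjustment over 45037 probe sets). The 4 that rose belonged to Per1, Per2, Cry1 and Cry2, and the 2 that fell belonged to Npas2 and Tef. These are shares of 18.2% and 9.09%, where 9.22% of all probe sets were higher and 8.75% were lower. With each gene represented by its probe set of highest mean log2 value, Per1, Cry1 and Cry2 were higher and Npas2 was lower, where 11.8% of all genes were higher and 9.56% were lower. Without old replicate 2, 3 of the 22 probe sets were higher and 4 were lower, where 7.11% of all probe sets were higher and 5.92% were lower. By representative probe set Cry1 was then higher, and Npas2 and Dbp were lower. Centring the arrays on their medians changed the calls over all probe sets from 4154 higher and 3939 lower to 4819 and 3023, and gave 5 higher and 2 lower among the 22. The values of the ages were fully separate for 6 of the 22 (27.3%, against 24.3% of all probe sets), 2 with all old arrays above and 4 with all old arrays below. None passed the stricter limits of a fold over 2 with an adjusted p under 0.01, which 0.844% of all probe sets passed, while 11 of the 22 had an unadjusted p under 0.05. The median log2 difference over the 22 was 0.013, beside -0.022 over all probe sets, and the median of its size was 0.21, beside 0.12. Probe sets of 1 gene share a target and are not independent.

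**Figure D1:**
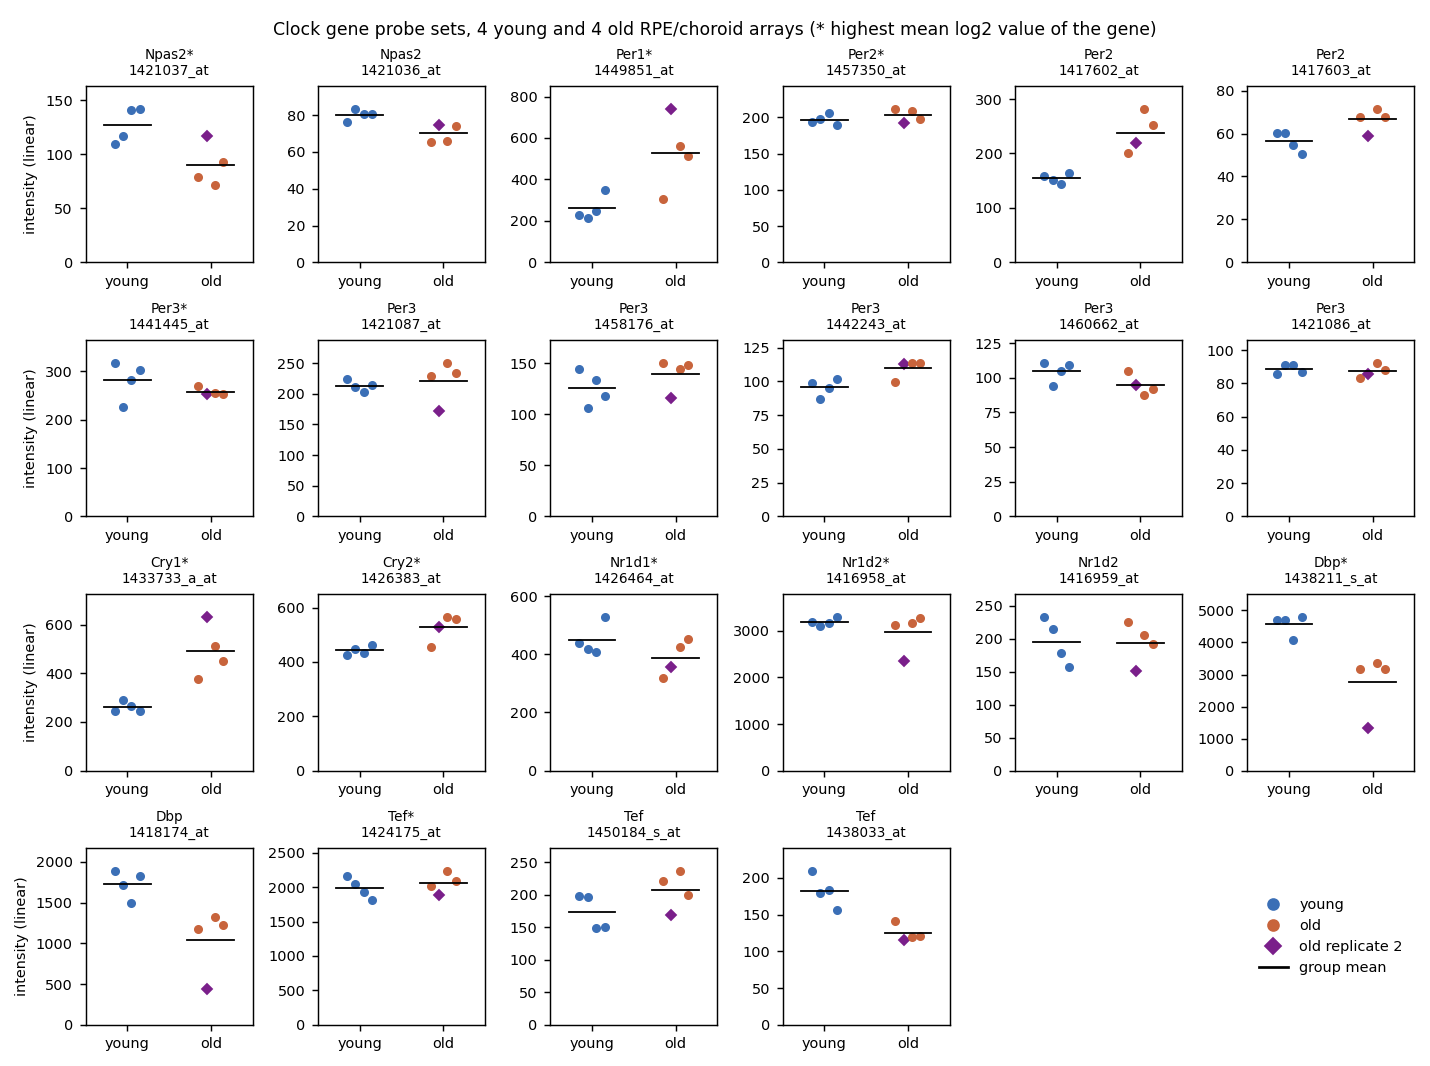
Intensity (linear scale from 0, normalized by the authors) of each of the 22 clock gene probe sets on the 4 young and 4 old arrays. Points are arrays, the diamond is old replicate 2 and lines are group means; asterisks mark the probe set of highest mean log2 value for a gene. Cry1 and Per2 1417602_at have all old arrays above all young arrays, and both Dbp probe sets have all old arrays below.

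The Period genes encode partners of the cryptochromes in the repressor complex, and probe sets of Per1 and Per2 rose. Per1, which also responds quickly to light and to hormones, had 1 probe set (1449851_at). Its intensities were 230.3, 212, 248 and 349 in young replicates 1 to 4 and 303, 741, 561 and 513 in old replicates 1 to 4. Old replicate 1 lay below young replicate 4, so the ages overlapped, and the other old arrays lay above every young array. Per1 rose 1.98-fold, a log2 difference of 0.98 (standard error 0.25, adjusted p = 0.0280, limma). The call was lost when any one of young replicates 1, 2 and 3 or old replicates 2, 3 and 4 was left out (adjusted p = 0.0562 to 0.0741), with a floor of 32 (0.0623) and with trend and robust estimation (0.0659), and without old replicate 2 the log2 difference was 0.80 (adjusted p = 0.0624, limma). In whole tissue, fewer or more cells of a type and less or more RNA per cell cannot be told apart, which holds for every gene below.

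Per2 had 3 probe sets that did not give the same result. On 1417602_at the values were 159, 151, 145 and 164 in young and 200.4, 219, 282 and 252 in old arrays. All old arrays lay above all young arrays, and the log2 difference was 0.61 (standard error 0.10, adjusted p = 0.00439, limma). On 1457350_at, which represents the gene by its mean log2 value, young arrays spanned 190.0 to 206 and old arrays 193 to 212, with a log2 difference of 0.042 (95% interval -0.083 to 0.17, adjusted p = 0.643). On 1417603_at young arrays ranged from 50.4 to 60.5 and old arrays from 59.0 to 71.6, a log2 difference of 0.24 (adjusted p = 0.0737, limma), and without old replicate 2 it was 0.30 (adjusted p = 0.0416). Thus 1 of the 3 probe sets passed with all arrays, and which transcripts each of them detects was not examined. With the mean of the 3 probe sets in place of 1457350_at, the log2 difference of Per2 was 0.30 and passed (adjusted p = 0.0135, limma).

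Per3, the third member of the family, had 6 probe sets and none passed with all arrays. Their log2 differences ran from -0.15 on 1460662_at to 0.20 on 1442243_at, with adjusted p-values from 0.0794 to 0.825 (limma), and the ages overlapped on each of them. On 1441445_at, which represents the gene, young arrays had 318, 227, 281 and 302 and old arrays 270.4, 253, 255 and 253, a log2 difference of -0.12 (95% interval -0.34 to 0.10). The old arrays lay inside the range of the young ones. Without young replicate 2 this difference was -0.22 and passed (adjusted p = 0.0473, limma). The difference on 1442243_at passed under quantile normalization (0.0364), median centring (0.0399) and array weights (0.0436) and without old replicate 1 (0.0368), at 0.20 to 0.25.

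Among the cryptochromes, the repressors that bind the BMAL1 complex directly, Cry1 had the clearest difference. Its probe set 1433733_a_at had 244, 291, 267 and 244 in young and 377, 632, 514 and 449.8 in old arrays. Every old array lay above every young array, with old replicate 2 the highest and old replicate 1 the lowest of its age. Cry1 rose 1.86-fold (log2 difference 0.89, standard error 0.14, adjusted p = 0.00351, limma), and without old replicate 2 the log2 difference was 0.76 (adjusted p = 0.00502). Cry2 on 1426383_at had 427, 447, 434 and 461 in young and 455, 530.2, 565 and 559 in old arrays. Only old replicate 1 fell within the young range. The rise of Cry2 was small, 1.19-fold (log2 difference 0.25, standard error 0.076, adjusted p = 0.0484), and leaving out any one array other than old replicate 1 ended the call (adjusted p = 0.0721 to 0.123, limma), as did quantile normalization (0.0712) and a floor of 32 (0.0553).

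Npas2, which can stand in for CLOCK as the partner of BMAL1, was the only one of the 10 genes to pass as lower by its representative probe set with all arrays. On 1421037_at the values were 109, 117, 141 and 142 in young and 79.0, 117, 71.8 and 92.5 in old arrays. Old replicate 2 reached the young range and the other old arrays lay below it. The log2 difference was -0.51 (standard error 0.15, adjusted p = 0.0454, limma), and it was -0.65 without old replicate 2 (adjusted p = 0.0132). Leaving out any other single array ended the call (adjusted p = 0.0533 to 0.113), as did a floor of 32 (0.0838). On 1421036_at all old arrays, at 65.4 to 74.8, lay below all young arrays, at 76.5 to 83.5, but the log2 difference of -0.20 did not pass (adjusted p = 0.0640, limma). Arntl, the gene of BMAL1, had 397, 378, 420.4 and 361 in young and 283, 437, 209 and 303 in old arrays on the probe set that represents it. Old replicates 1, 3 and 4 lay below all young arrays and old replicate 2 lay above all of them. Its log2 difference was -0.38 (adjusted p = 0.180), and -0.57 without old replicate 2 (adjusted p = 0.0234, limma). On the other probe set of Arntl, 1457740_at, all old arrays, at 85.1 to 93.4, lay below all young arrays, at 95.9 to 111. The log2 difference there was -0.21 and did not pass (adjusted p = 0.0514, limma). Clock had a log2 difference of -0.15 by its representative probe set (adjusted p = 0.192).

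For the REV-ERB genes no difference between the ages passed. Nr1d1 on 1426464_at had 438, 419, 409 and 528 in young and 319, 356, 425 and 452 in old arrays. The ages overlapped, and the log2 difference was -0.21 (95% interval -0.49 to 0.062, adjusted p = 0.257, limma). Nr1d2 on 1416958_at had 3193, 3112, 3158 and 3295 in young and 3128, 2347, 3174 and 3271 in old arrays. All arrays but old replicate 2 lay between 3112 and 3295, and that array lay below them. The log2 difference was -0.11 (95% interval -0.34 to 0.12, adjusted p = 0.485), and without old replicate 2 it was 0.00061. The other probe set of Nr1d2, 1416959_at, had a log2 difference of -0.015 (95% interval -0.35 to 0.32, adjusted p = 0.957).

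Dbp, an output gene of the clock with a wide daily range in many mouse tissues, was lower on every old array than on any young array by both of its probe sets, yet it did not pass. On 1438211_s_at the values were 4702, 4695, 4077 and 4794 in young and 3161, 1335, 3352 and 3165 in old arrays. Old replicates 1, 3 and 4 lay close together and old replicate 2 lay far below them. The log2 difference was -0.82 (standard error 0.26, adjusted p = 0.0604, limma). On 1418174_at the values were 1885, 1712, 1496 and 1831 in young and 1182, 443, 1317 and 1223 in old arrays, with a log2 difference of -0.85 (adjusted p = 0.0874, limma). Old replicate 2 was again the lowest. Without that array both differences were smaller and both passed, at -0.50 (standard error 0.072, adjusted p = 0.00455, limma) for 1438211_s_at and -0.48 (adjusted p = 0.0129) for 1418174_at, when 7.11% of all probe sets were higher and 5.92% were lower. With all arrays but only probe sets above the median level tested, 1438211_s_at also passed (adjusted p = 0.0348, limma).

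Tef, the other PAR bZIP gene, gave results that depended on the probe set. On 1438033_at the values were 209, 179, 183 and 157 in young and 142, 116, 119.7 and 120.4 in old arrays. All old arrays lay below all young arrays, and the log2 difference was -0.55 (standard error 0.10, adjusted p = 0.00573, limma). On 1424175_at, the probe set of highest mean log2 value, young arrays spanned 1819.8 to 2163 and old arrays 1887 to 2231, and the log2 difference was 0.048 (95% interval -0.12 to 0.21, adjusted p = 0.689). On 1450184_s_at the log2 difference was 0.25 (95% interval -0.048 to 0.55, adjusted p = 0.221). No single direction can be given for Tef.

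**Figure D2:**
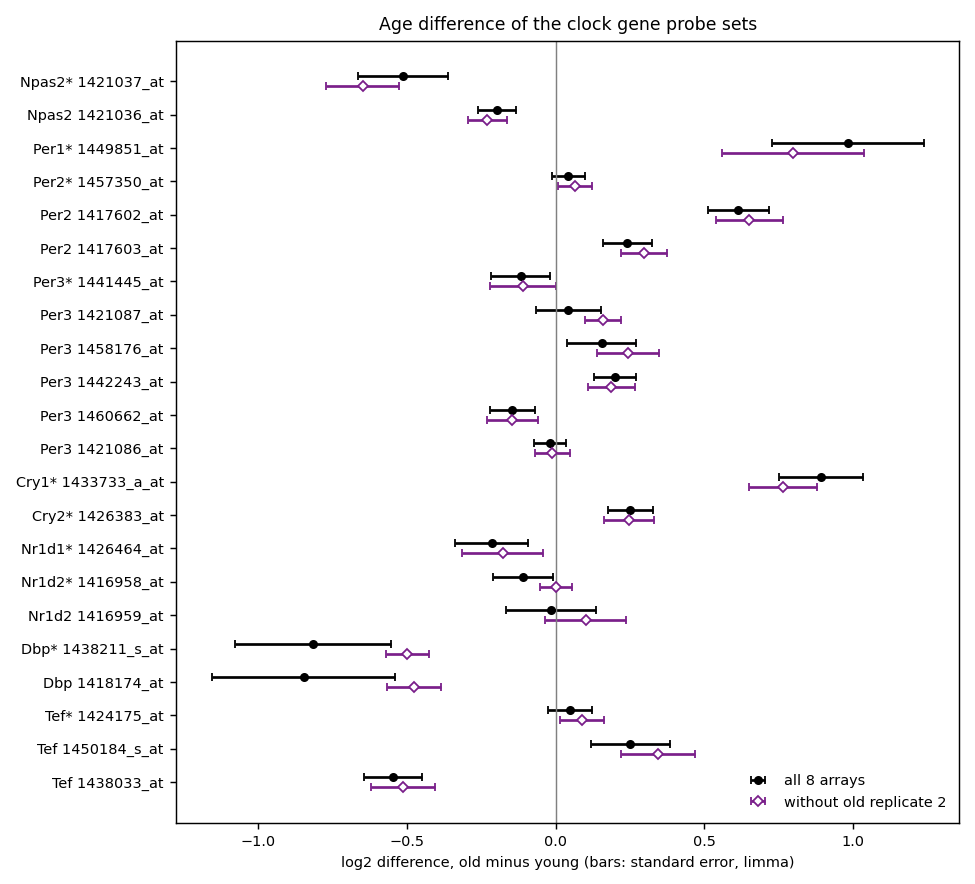
Log2 difference, old minus young, for each clock gene probe set with all 8 arrays (filled points) and without old replicate 2 (open diamonds). Bars are limma standard errors and asterisks mark the probe set that represents a gene. The Dbp differences move from -0.82 and -0.85 to -0.50 and -0.48 and their bars shorten, while Cry1 and Per2 1417602_at stay well above 0.

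A later or earlier collection time would be expected to move genes of opposite daily phase in opposite directions, so 2 groups were averaged on each array after centring every gene. Arntl, Clock, Npas2, Nfil3 and Cry1 formed a positive-limb and night group, and Per1, Per2, Per3, Nr1d1, Nr1d2, Dbp, Tef, Hlf, Bhlhe41 and Ciart a day and dusk group. Each gene entered by its representative probe set, so Per2 by 1457350_at (log2 difference 0.042) and not by 1417602_at (0.61). Between the ages neither group moved as one. In the first group 2 genes had positive and 3 had negative log2 differences, from -0.51 for Npas2 to 0.89 for Cry1, and in the second 5 were positive and 5 negative, from -0.82 for Dbp to 0.98 for Per1. Without old replicate 2 the first group again had 2 positive and 3 negative, with Nfil3 at 0.088 where it had 0.59, and the second had 6 positive and 4 negative. The mean of the first group ranged from -0.20 to 0.094 over young arrays and was -0.22, 0.64, -0.19 and -0.054 in old replicates 1 to 4. The mean of the second ranged from -0.083 to 0.12 over young and from -0.13 to 0.14 over old arrays, so both overlapped between the ages. Genes within a group need not peak at the same hour, so mixed signs within a group cannot tell whether collection time differed. These means are a description of 8 arrays, and collection time itself was not tested.

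Old replicate 2 stood apart from the other old arrays in the mean of the first group. In the mean of the second it was at -0.13, close to old replicate 1 at -0.11, while old replicates 3 and 4 were at 0.14 and 0.083. By gene, all 5 positive-limb and night genes were above the mean of the other old arrays on old replicate 2. Of the 10 day and dusk genes 8 were below that mean, though Nr1d1 and Ciart were lower still on old replicate 1. Nfil3, the D-box repressor, contributed most to the first group, at 562 on old replicate 2 against 116, 165 and 142 on the other old arrays. With Nfil3 left out, a setting chosen after its value was seen, the group mean on that array was 0.35, against -0.24 to -0.021 on the other old arrays. The exceptions in the second group were Per1, the highest of all arrays at 741, and Bhlhe41. The neutrophil markers given above were also highest on this array, and their part in these values was not tested.

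**Figure D3:**
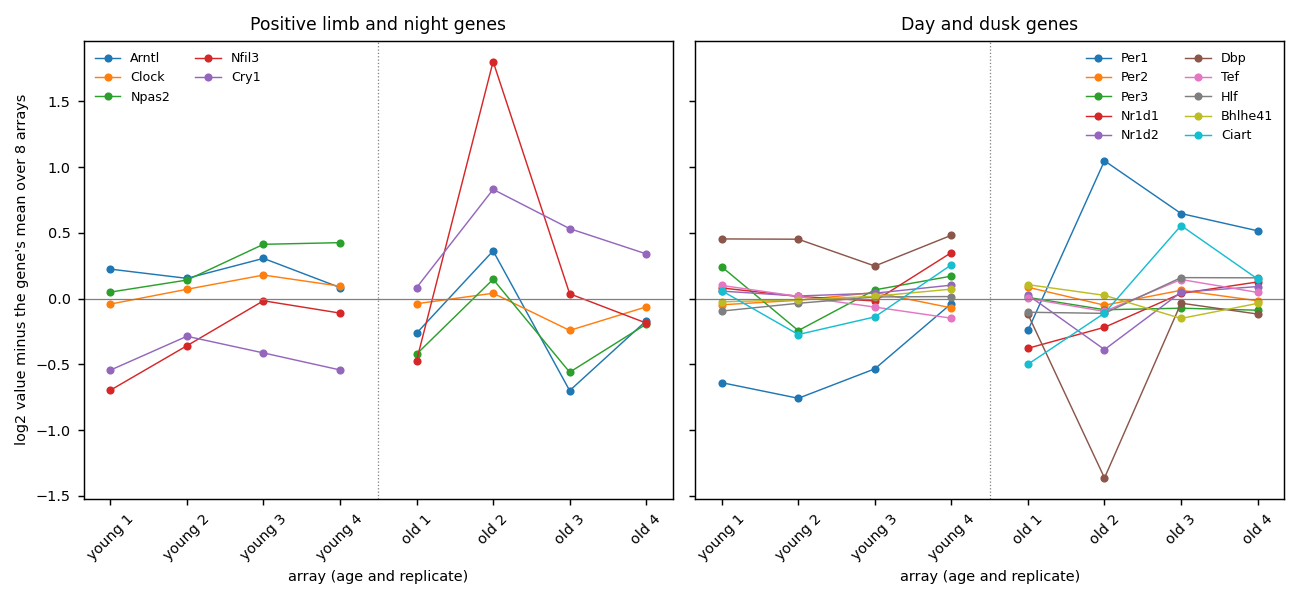
Log2 value of each gene minus its mean over the 8 arrays, for 5 positive-limb and night genes (left) and 10 day and dusk genes (right), by array. Lines join the points of a gene and carry no order in time. Each gene is shown by its representative probe set. Old replicate 2 has the highest Nfil3 and the lowest Dbp, while differences between the ages are of both signs within each group.

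At the median the clock gene probe sets varied more within an age than all probe sets did. The median pooled within-age SD of log2 values was 0.16 over the 22 probe sets, beside 0.11 over all probe sets. It was 0.18 beside 0.092 among probe sets above the median level, where 15 of the 22 lay. Some of the 22 varied less than the median of all probe sets, such as Per3 1421086_at at 0.053 and Per2 1457350_at at 0.058. The medians were not computed without old replicate 2. For Dbp, old replicate 2 carried 72.6% of the within-age squares on 1438211_s_at and 71.6% on 1418174_at. The mean of the other old arrays was 2.42-fold and 2.80-fold above it. Nr1d2 on 1416958_at and Per3 on 1421087_at also owed most of their within-age squares to this array, 72.1% and 67.3%, whereas for Cry2 its part was 0.231%.

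Genes whose values followed Dbp within the ages were ranked by Pearson's r over the 8 arrays after each age was centred. All genes were read from the same pools. The 5 with the highest r were Adnp2 at 0.997, Zfp160 at 0.986, Nkap at 0.981, Znrd2 at 0.980 and Zfp759 at 0.980. Without old replicate 2 these values were 0.919, 0.637, 0.555, 0.635 and 0.737. Per3 by 1421087_at was at rank 11 of 18192 genes with an r of 0.976, where a gene is ranked by its probe set of highest r, and Nr1d2 by 1416958_at at rank 13 with 0.974. The other 5 probe sets of Per3 had an r of -0.15 to 0.60, with 0.077 for the one that represents the gene, and the other probe set of Nr1d2 had 0.652. On 7 arrays, without old replicate 2, Per3 1421087_at kept 0.759 and Nr1d2 had 0.245. Nfil3 had an r of -0.94 and a rank of 86 from the lowest, and without old replicate 2 its r was -0.25. Cry1 and Per1 had -0.73 and -0.54 on 8 arrays and 0.11 and 0.29 on 7.

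**Figure D4:**
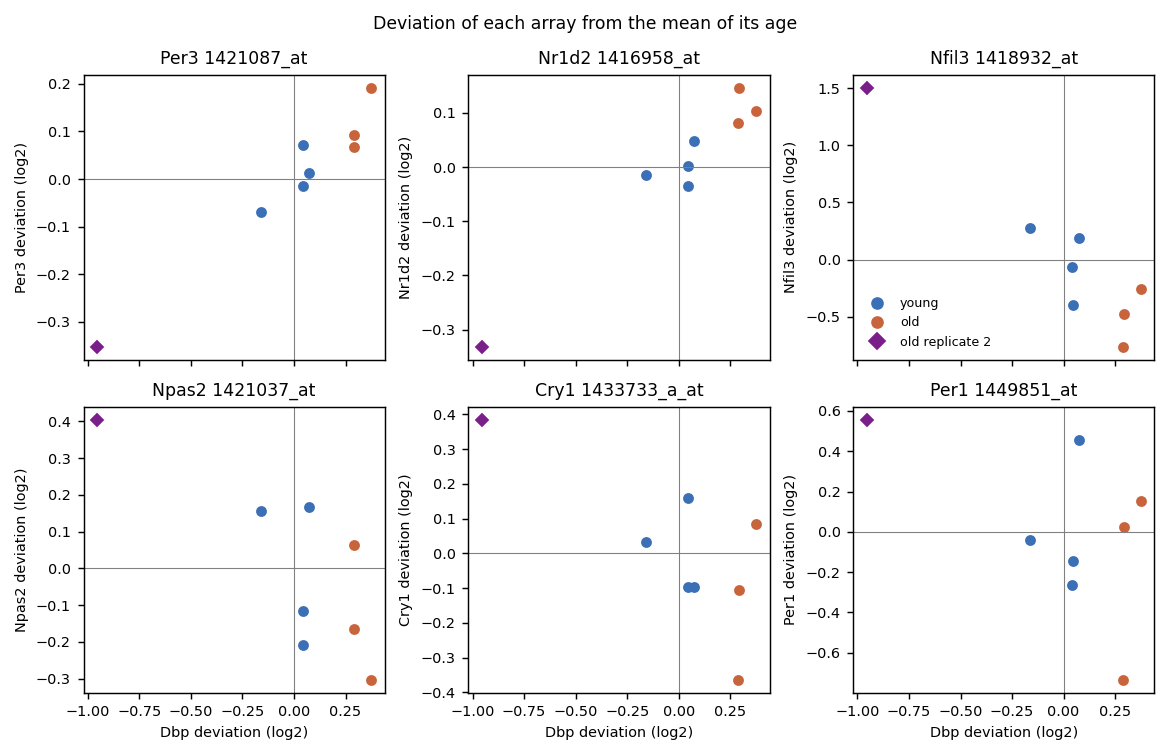
Deviation of each array from the mean of its age (log2) for Dbp 1438211_s_at on the horizontal axis and 6 clock gene probe sets on the vertical axes. Each point is an array and the diamond is old replicate 2. That array lies alone at the left of every panel, at -0.95 for Dbp.

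Other genes of the clock were taken from a list of 32, of which 29 had a probe set of their own. By representative probe set 6 were higher, 3 were lower and 20 did not pass, shares of 20.7% and 10.3% beside 11.8% and 9.56% of all genes, with a median log2 difference of 0.076. The largest rise was in Nampt, the rate-limiting enzyme of NAD salvage, with 792, 853, 901 and 886 in young and 1439, 1538, 1514 and 1369.8 in old arrays. All old arrays lay above all young arrays and the log2 difference was 0.77 (standard error 0.063, adjusted p = 0.000104, limma). Usp2, a deubiquitinase, had 0.71 (adjusted p = 0.0299, and 0.0540 without old replicate 2), and Wee1, a kinase that holds back mitosis, had 0.68 (adjusted p = 0.000625, limma). The other probe set of Usp2, 1417168_a_at, had 0.70 and did not pass (adjusted p = 0.0522, limma). The ages overlapped on both probe sets of Usp2. A further probe set of Wee1, 1416774_at, had a log2 difference of -0.34 that did not pass (adjusted p = 0.0875), so the probe sets of Wee1 differed in sign. The other genes of the list that rose were Fbxl21, Prkaa1 and Csnk1e. Fbxl21, which acts on cryptochrome turnover, had a log2 difference of 0.53 on a probe set of low signal. No young array exceeded 38.1 there, and the lowest old array read 45.9. By mean log2 value this probe set ranked at percentile 16.2 of all probe sets. Prkaa1, a catalytic subunit of the AMP-activated kinase, had 0.36. Csnk1e, a kinase of the Period proteins, had 0.23, and its other probe sets, at -0.051 and 0.18, did not pass.

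Among those that fell, Rorb, an orphan nuclear receptor expressed in the neural retina, had 1123, 1077, 896 and 783 in young and 606, 565, 431 and 672 in old arrays. All old arrays were below all young arrays, and the log2 difference was -0.77 (standard error 0.15, adjusted p = 0.00947, limma). Ppargc1a, a coactivator of mitochondrial genes, fell by 0.68 on the log2 scale on 1460336_at (adjusted p = 0.00609), while its 4 other probe sets were at -0.082 to 0.075 and did not pass (adjusted p = 0.425 to 0.847, limma). A further fall was that of Prkaa2, the other catalytic subunit of the AMP-activated kinase, by 0.21 (adjusted p = 0.0202, limma). Of markers of inner retinal neurons 4 of 7 were lower, as Rorb was, and none was higher (9.56% of all genes were lower and 11.8% higher). Their mean centred log2 values ran from 0.41 to 0.67 on young arrays and from -0.75 to 0.13 on old ones. The other 3 did not pass, and of these Gad1 and Calb2 were above every young array on old replicate 4, at 342 and 350. The part of these markers in the value of Rorb was not tested.

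Genes induced by glucocorticoids, a class that includes Per1 in many cells, were higher for 6 of 12 and lower for none (11.8% of all genes were higher and 9.56% lower), with a median log2 difference of 0.58. Fkbp5, which encodes a cochaperone of the glucocorticoid receptor, had 331, 373, 359 and 332 in young and 620.4, 1394, 1420.0 and 1061 in old arrays. Every old array was above every young one, and the log2 difference was 1.62 (standard error 0.23, adjusted p = 0.00198, limma). Zbtb16, a zinc finger regulator, had a log2 difference of 1.51 (adjusted p = 0.00349). Old replicate 1 was the lowest old array for Fkbp5 and Zbtb16, as it was for Per1, Cry1 and Cry2, and the mean centred log2 value of the list was -0.032, 0.59, 0.39 and 0.28 in old replicates 1 to 4 and -0.39 to -0.19 in young arrays. Whether these genes bear on the rise of Per1 was not tested. Of 13 immediate early genes 2 were higher, Atf3 by 0.89 and Ier3 by 0.64 on the log2 scale, and none was lower. The list mean overlapped between the ages, from -0.50 to 0.58 on young arrays and from -0.30 to 0.43 on old ones.

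The makeup of the tissue also moved with age, and its part in the clock gene values was not tested. RPE markers were lower for 6 of 11, choroidal endothelial markers for 6 of 7 and melanocyte markers for 5 of 5, with none higher (9.56% of all genes were lower and 11.8% higher). Macrophage markers were higher for 6 of 8, T cell markers for 4 of 5 and plasma cell markers for 2 of 5, with none lower. Neutrophil markers were higher for 2 and lower for 1 of 6. Rod markers passed for none of 10, with means from -0.49 to 0.62 on young arrays and from -0.86 to 0.64 on old ones. Of cone markers 2 of 7 were lower, of Mueller glia markers 1 was higher and 3 were lower of 6, and skeletal muscle and smooth muscle markers passed for none of 5 each. Rlbp1 is on both the RPE and the Mueller glia list and is counted as lower in each.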

How the data were processed

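RNA from RPE/choroid was hybridized to Affymetrix mouse expression arrays, 4 per age. The authors quantified and normalized the intensities before they were deposited; their methods name RMA, Dchip and BRB-ArrayTools, and which of these gave the deposited linear intensities is not stated. Array medians are alike but the distributions are not identical. A different normalization could move small differences, so others were tried.

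Intensities below 1 were set to 1 and log2 was taken. Of 45101 probe sets, 64 controls were left out, and limma 3.58.1 in R 4.3.3 (lmFit and eBayes, old against young, no covariate) was fitted to 45037 with Benjamini-Hochberg adjustment. A single gene was named by 34945 probe sets, several by 932 and none by 9160. Symbols came from the platform annotation, and 204 gene identifiers were not matched to the RefSeq table. A call is an adjusted p under 0.05, with the probe set of highest mean log2 value standing for a gene. All 22 probe sets of the clock genes are given, with the 9 called genes of the wider clock list (the rule set 8, and Prkaa2 was named beside the other 2 that fell after its value was seen) and up to 2 of each other list, although not every other list has its genes named, and the 5 genes most like Dbp. The clock genes, lists and tests were chosen with earlier results of these data known. The number of arrays limits the precision of every value. The other settings tried were a minimum level, quantile or median scaling between arrays, a floor of 32, eBayes with trend and robust options, weights per array, a block for the replicate number, omission of each array in turn, the mean of a gene's probe sets, and fold limits. Leaving out old replicates 2 and 4 together was added after the values were seen.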

Additional observations from a re-analysis of the deposited data

Results flagged for a closer look

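Each probe set was examined at each age for an array that lies far from the other 3, by Dixon's 95% limit on its gap to the nearest of them over the range of the 4. Of 44 groups of 4 arrays 7 had one, and chance gives about 1 in 20. Over all probe sets 5.57% of such groups had one, and old replicate 2 was that array in 2.07% of the old groups. Several of the 7 are probe sets of 1 gene on 1 array and are not independent. Of these, 4 were in old replicate 2. Both Dbp probe sets were low there, at 1335 on 1438211_s_at with the other old arrays at 3161 to 3352, and at 443 on 1418174_at with the others at 1182 to 1317. Nr1d2 on 1416958_at was at 2347 with the others at 3128 to 3271, and Per3 on 1458176_at at 115 with the others at 144 to 150.2. Dbp on 1438211_s_at was also low in young replicate 3, at 4077 with the other young arrays at 4695 to 4794. In old replicate 1, Per3 was high on 1441445_at, at 270.4 with the others at 253 to 255, and low on 1442243_at, at 99.5 with the others at 113 to 114.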

How the results depend on the processing

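Cry1 and Per2 1417602_at kept their direction and their call under all 17 and 16 alternatives run. Per1 kept its call in 8 of 17, Cry2 in 6 of 17, Npas2 1421037_at in 7 of 16 and Tef 1438033_at in 15 of 16, and Dbp 1438211_s_at passed in 3 of 17 (adjusted p = 0.00455 to 0.128, limma). Over all alternatives for single probe sets, 295 kept their direction and side of the threshold, 30 lost and 15 gained a call, and 15 turned direction. These counts include the mean of a gene's probe sets. For Per1, Cry1, Cry2 and Nr1d1, with 1 probe set each, that setting repeats the reported values and could not differ. With values floored at 32, 2 clock probe sets were higher and 1 lower, and 1 gene was higher and 0 lower. With the mean of a gene's probe sets, 4 genes were higher and 1 was lower. Without old replicates 2 and 4, 2 probe sets were higher and 4 lower, 1 gene was higher and 2 lower, 3 wider clock genes were higher, and over all probe sets 2004 were higher and 1614 lower, on fewer arrays. With a fold over 2, 0 clock probe sets were higher and 0 lower, both at an adjusted p under 0.01 and at an unadjusted p under 0.05. Leaving out 1 array at a time gave 2 to 5 clock probe sets higher and 1 to 4 lower, 1 to 3 genes higher and 0 to 2 lower, 4 to 7 wider clock genes higher and 2 to 4 lower, and 2827 to 4284 probe sets higher and 2135 to 4030 lower over all.

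No source pairs young with old samples. After removal of the age means, young and old arrays with equal numbers correlated at 0.0971, 0.0190, 0.0219 and 0.0427, and the own number was highest for replicate 1 alone. With the replicate number as a block, 3 clock probe sets were higher and 1 was lower, 2 genes were higher and 0 lower, 6 wider clock genes were higher and 2 lower, and 3257 and 2930 probe sets were higher and lower over all; the calls of Npas2 (adjusted p = 0.0682) and Cry2 (0.0576) were not made.

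Directions that turned belonged to differences near 0, none of which passed in the reported fit. Per3 1441445_at was at 0.019 with the mean of the gene's probe sets. Per3 1421087_at ran from -0.023 (without old replicate 3) to 0.16 when 1 array was left out, and Per3 1421086_at from -0.047 to 0.0017 (without old replicate 1), with 0.0078 under quantile normalization and 0.0075 under median centring. Nr1d2 1416958_at ran from -0.16 to 0.00061 (without old replicate 2). Nr1d2 1416959_at ran from -0.12 to 0.10, with values above 0 without young replicate 1 (0.074), young replicate 2 (0.034) or old replicate 2, and was at 0.0014 with quantile normalization, 0.013 with median centring, 0.069 with array weights and 0.15 with old replicates 2 and 4 left out. Tef 1424175_at was at -0.013 with quantile normalization and -0.082 with the mean of its probe sets. The cause of these turns was not tested.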

Other observations

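Several genes of the wider clock list had probe sets that passed while the one of highest mean log2 value did not. They were chosen for mention after their values were seen. Clock fell by 0.27 on 1435775_at and 0.28 on 1418660_at on the log2 scale (adjusted p = 0.0288 and 0.0291, limma), Csnk1d rose by 0.43 on 1418889_a_at (adjusted p = 0.0137) and Timeless by 0.36 on 1417587_at (adjusted p = 0.0170). Rora, a receptor that competes with the REV-ERB proteins, rose by 0.21 on 1455165_at and 0.19 on 1458145_at (adjusted p = 0.0459 and 0.0404, limma). The other probe sets of these genes did not pass. They were at -0.15 and -0.050 for Clock, -0.081 to 0.029 for Csnk1d, 0.10 for Timeless and -0.11 to 0.096 for Rora.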
